A study of Gallus gallus with 6 samples.

Results

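The genes described here are those of chick (Gallus gallus) integrins, laminins, nidogens, syndecans and glypicans, measured in mesenchyme of the limb, neck and flank. A gene of the deposited expression table was a member where its symbol began with ITGA, ITGB, LAMA, LAMB, LAMC, SDC, GPC or NID, or where its description named an integrin alpha or beta chain, a laminin chain, a syndecan, a glypican or a nidogen. It also had to reach 1 CPM (counts-per-million value) in at least 1 library. The names matched 39 of 17781 genes, and 36 were kept. Of the 36, 28 belong to the 5 families: 6 integrin alpha chains, 3 integrin beta chains, 8 laminin chains, 2 nidogens, 4 syndecans and 5 glypicans. The other 8 carry a matching prefix or description but encode proteins of other families, and they are given apart. Nearest to the 1 CPM limit were ITGBL1 (highest level 1.09 CPM) and Q91435_CHICK (1.12) inside it and ITGB1BP2 (0.967) outside.

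The study compared mesenchyme that forms limbs with mesenchyme that does not, using polyadenylated RNA sequenced from tissue taken from embryos without culture. It held 6 libraries, 1 for each tissue and Hamburger-Hamilton (HH) stage of development. Limb tissue came from the presumptive forelimb of HH15 embryos, the forelimb bud of HH19 and the hindlimb bud of HH18, and non-limb tissue from the neck and from the flank of HH19 embryos. A further library, called the flank-neck library here, is labelled as flank and neck together at HH19. The labels name no strain, genotype or treatment and no number of embryos per library. For the flank, the title gives 9 where the source label gives HH19, so its stage rests on the source label. The flank-neck library is tied to its column of the table only through initials and stage in the column's name.

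Integrins are cell-surface receptors made of an alpha and a beta chain; they bind matrix proteins outside the cell and the actin cytoskeleton inside it. Laminins, built of an alpha, a beta and a gamma chain, polymerise into basement membranes, and nidogens link that network to type IV collagen. Syndecans, which span the membrane, and glypicans, which a lipid anchors to its outer face, carry heparan sulphate chains that bind matrix proteins and growth factors such as FGF, Wnt and hedgehog ligands. In the limb bud the mesenchyme lies against the basement membrane of the overlying ectoderm.

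Between 7130877 and 9623046 reads were counted to genes per library, and 3 reads, taken as the floor, were worth 0.312 to 0.421 CPM. Intervals are 95% Wilson intervals; they and the floor cover counting error only, and no tissue and stage had a second library. Mesenchyme markers (6 of 7 in the table, COL1A2 and PRRX1 among them) summed to 898 to 1104 CPM in the 3 limb libraries, 2153 in neck, 2196 in flank and 992 in the flank-neck library. Of the 6, 5 had a lower mean in limb than in neck and flank, and PRRX1 did not. COL1A2 was at 326 to 417 CPM in the limb libraries, 1278 in neck and 932 in flank. PRRX1 was at 491, 264 and 306 CPM in presumptive forelimb, forelimb and hindlimb, 261 in neck and 430 in flank. Markers of other cell types were present too, and differed between libraries. Ectoderm and epithelium markers (11 of 15 in the table, none at 0 in every library) summed to 296 CPM in presumptive forelimb, 45.0 in forelimb, 44.8 in hindlimb, 193.5 in neck, 248 in flank and 48.2 in the flank-neck library. Endothelium markers (11 of 12) summed, in the same order, to 74.5, 95.3, 122, 244.5, 97.8 and 164.6 CPM. Globins took 3.34% of the reads in flank and at most 0.377% elsewhere. Myogenic markers (6 of 7) summed to 28.7 CPM in forelimb and to at most 15.9 elsewhere, and coelomic lining markers (5 of 5, UPK3B at 0 throughout) to between 9.52 and 86.7. The neural markers (3 of 8), nearly all ELAVL4, summed to between 21.9 and 37.3. The macrophage marker in the table (SPI1, 1 of 4) was at most at 3.56 CPM. Neural crest markers (3 of 5) summed to at most 0.982 CPM, and the endoderm marker in the table (NKX2-1, 1 of 4) was at or below 0.140 CPM. In bulk tissue, fewer cells of a type and less RNA per cell cannot be told apart. CPM are not divided by gene length, so a gene's levels are compared between libraries and not with those of another gene.

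**Figure D1:**
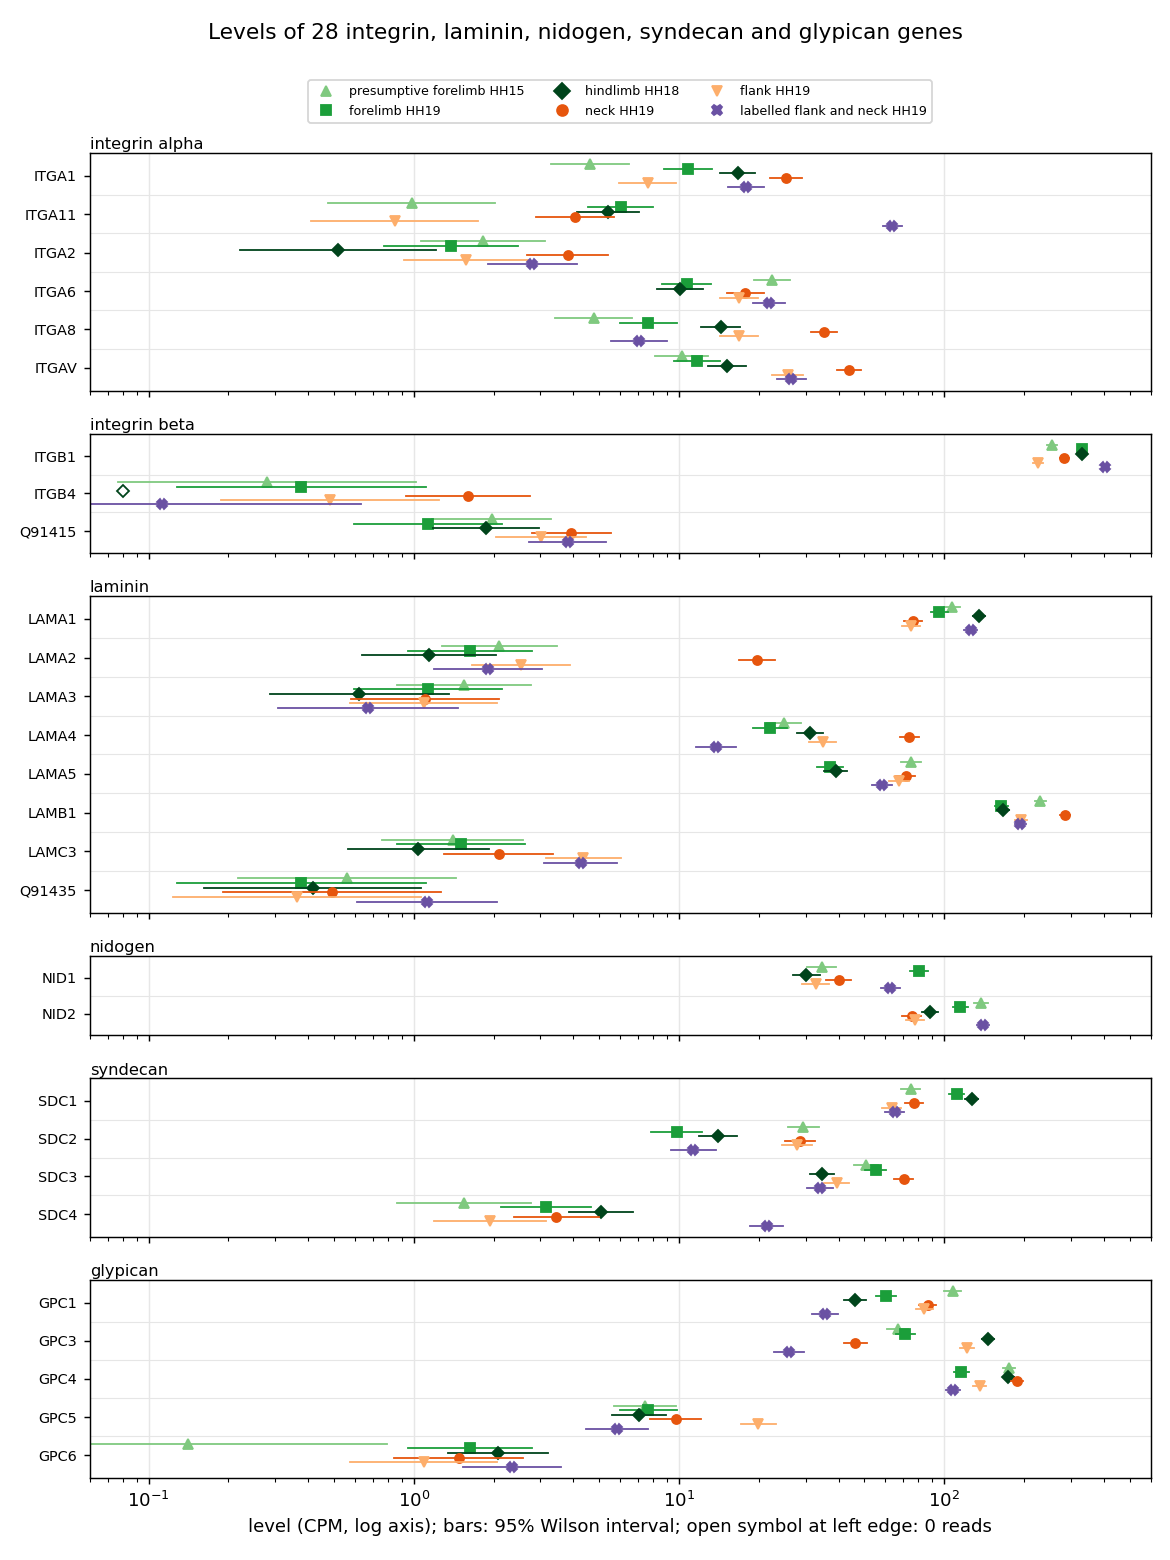
Level of each of the 28 family members in the 6 libraries (CPM, log axis), grouped by family; points are single libraries and bars their 95% Wilson intervals for counting error. ITGA11 and SDC4 stand apart in the flank-neck library (63.7 and 21.4 CPM), LAMA2 in neck (19.7 CPM), while LAMB1, GPC4 and ITGB1 stay within a 1.79-fold range.

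Among the receptors, ITGB1, the beta chain shared by most laminin-binding and collagen-binding integrins, was at 255 CPM in presumptive forelimb, 331 in forelimb, 332 in hindlimb, 284 in neck, 226 in flank and 405 in the flank-neck library. Its 6 values lay within a 1.79-fold range, and the limb values overlapped those of neck and flank. Of its alpha partners that bind ligands with an RGD motif, such as fibronectin, ITGAV was at 10.2, 11.7 and 15.2 CPM in presumptive forelimb, forelimb and hindlimb, 43.9 in neck, 25.7 in flank and 26.6 in the flank-neck library. All 3 limb values lay below every other value, and the intervals nearest to each other, 12.9 to 17.8 CPM in hindlimb and 22.5 to 29.4 CPM in flank, did not meet. ITGA8, which pairs with ITGB1 and binds nephronectin, was at 4.77, 7.67 and 14.3 CPM in the limb libraries, 35.3 in neck, 16.8 in flank and 7.06 in the flank-neck library. Here the last value fell within the limb range, and the intervals of hindlimb (12.1 to 16.9) and flank (14.2 to 19.8) overlapped.

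The collagen-binding alpha chains each had a pattern of their own. ITGA1 was at 4.63 CPM in presumptive forelimb, 10.8 in forelimb, 16.6 in hindlimb, 25.3 in neck, 7.61 in flank and 17.9 in the flank-neck library. It was lowest in presumptive forelimb and flank and highest in neck, so limb and non-limb values were interleaved. ITGA11, whose product binds fibrillar collagen, was at 0.982, 6.03, 5.40, 4.05 and 0.846 CPM in presumptive forelimb, forelimb, hindlimb, neck and flank, and at 63.7 CPM in the flank-neck library (interval 58.7 to 69.2). That library alone made the range of ITGA11 75.3-fold; without it the range was 7.13-fold. ITGA2 was low throughout, at 1.82, 1.38, 0.520, 3.81, 1.57 and 2.80 CPM in the same order, with its highest value in neck.

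ITGA6, a laminin-binding alpha chain abundant in epithelia, was at 22.4 CPM in presumptive forelimb, 10.7 in forelimb, 10.1 in hindlimb, 17.8 in neck, 16.8 in flank and 21.8 in the flank-neck library. The later limb libraries held the lowest levels and presumptive forelimb the highest. ITGB4, which pairs with ITGA6 in hemidesmosomes of epithelial cells, was near the floor, at 0.280, 0.377, 0, 1.60, 0.483 and 0.112 CPM; it passed the 1 CPM filter through neck alone, where it had 13 reads. Q91415_CHICK, an integrin beta fragment with no gene name in the table, was at 1.96, 1.13 and 1.87 CPM in the limb libraries, 3.93 in neck, 3.02 in flank and 3.81 in the flank-neck library. All 3 limb values of this fragment were below the other 3, but the intervals of presumptive forelimb (1.17 to 3.30) and flank (2.05 to 4.46) overlapped. ITGB6, an epithelial beta chain, had at most 2 reads in a library and was below the filter.

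Among the ligands, LAMA1, an alpha chain of the earliest embryonic basement membranes, was at 107 CPM in presumptive forelimb, 96 in forelimb, 136 in hindlimb, 76.2 in neck, 75.1 in flank and 126 in the flank-neck library. The 3 limb values were above neck and flank, but the flank-neck library lay within the limb range. LAMA5, the broadly expressed epithelial alpha chain, was at 75.0, 37.2, 39.0, 71.5, 67.6 and 58.1 CPM in the same order. Its later limb values were about level with each other and below the other 4. LAMA2, the alpha chain of muscle and nerve basement membranes, was at 2.10, 1.63 and 1.14 CPM in the limb libraries, 19.7 in neck (interval 16.8 to 22.9), 2.54 in flank (1.66 to 3.88) and 1.90 in the flank-neck library. Neck stood apart from all other libraries, and the interval of flank overlapped that of each limb library.

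LAMA4, the alpha chain typical of vessel basement membranes, was at 25.0, 22.1 and 31.3 CPM in the limb libraries, 74.0 in neck, 34.8 in flank and 13.8 in the flank-neck library. Neck was highest and the flank-neck library lowest, with hindlimb (27.9 to 35.0) and flank (31.0 to 39.1) overlapping in their intervals. LAMB1, the beta chain of most embryonic laminins, was at 230, 164, 167, 286, 195 and 193 CPM in the usual order, a 1.74-fold range. LAMC3, a gamma chain, was at 1.4, 1.51 and 1.04 CPM in the limb libraries, 2.09 in neck, 4.35 in flank and 4.26 in the flank-neck library. The limb values of LAMC3 were again the lowest 3, but the intervals of forelimb (0.863 to 2.64) and neck (1.30 to 3.35) overlapped. LAMA3, an epidermal alpha chain, ranged from 0.624 CPM in hindlimb to 1.54 in presumptive forelimb. Q91435_CHICK, described as a laminin beta chain and adjacent in the table to LAMB1 on chromosome 1, ranged from 0.363 to 0.561 CPM in 5 libraries and was at 1.12 CPM in the flank-neck library, where it had 10 reads. LAMB3, an epidermal beta chain, had 1 read in all and was below the filter.

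The nidogens differed from each other. NID1 was at 34.5 CPM in presumptive forelimb, 80.4 in forelimb, 30.2 in hindlimb, 40.1 in neck, 32.8 in flank and 62.5 in the flank-neck library, so forelimb and that last library were high. NID2 was at 138, 115 and 88.4 CPM in the limb libraries, 75.3 in neck, 77.4 in flank and 140.2 in the flank-neck library. All 3 limb values of NID2 were above neck and flank, though the flank-neck library was about level with presumptive forelimb. The intervals of hindlimb (82.7 to 94.6 CPM) and flank (71.6 to 83.6 CPM) overlapped.

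Among the co-receptors, SDC1, a syndecan of early epithelia and condensing mesenchyme, was at 74.7 CPM in presumptive forelimb, 111 in forelimb, 127 in hindlimb, 76.9 in neck, 63.3 in flank and 65.1 in the flank-neck library. The later limb buds held the highest levels, and presumptive forelimb lay between neck and flank. SDC2, a mesenchymal syndecan, had another order, at 29.4, 9.80, 14, 28.6, 27.9 and 11.3 CPM. Presumptive forelimb, neck and flank were high, within counting error of each other, and the other 3 libraries were low. SDC3, which has a role in limb cartilage, was at 50.6, 55.2, 34.6, 70.3, 39.4 and 33.9 CPM. SDC4, a syndecan of focal adhesions, was at 1.54, 3.14, 5.09, 3.44 and 1.93 CPM in the first 5 libraries and at 21.4 CPM in the flank-neck library (interval 18.6 to 24.7). Its range was 13.9-fold with that library and 3.30-fold without it.

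The glypicans GPC3 and GPC4 lie next to each other in the table on chromosome 4, and their patterns differed. GPC3, a restraint on hedgehog signalling in the mouse, was at 66.8 CPM in presumptive forelimb, 71.4 in forelimb, 146 in hindlimb, 46.2 in neck, 122 in flank and 26.0 in the flank-neck library. Hindlimb and flank were high, and forelimb and neck low. GPC4 was at 176, 116, 174, 188, 136 and 108 CPM, a 1.74-fold range. GPC1 was at 107.6, 60.3, 46.1, 86.6, 84.2 and 35.5 CPM, highest in presumptive forelimb and lowest in the flank-neck library. GPC5 was at 7.43, 7.67 and 7.07 CPM in the limb libraries, 9.71 in neck, 19.9 in flank and 5.83 in the flank-neck library, with flank standing above the rest. Its intervals in forelimb (5.97 to 9.85) and neck (7.79 to 12.1) overlapped. GPC6, which lies near GPC5 on chromosome 1 with 2 genes between them, had 1 read (0.140 CPM) in presumptive forelimb and 1.09 to 2.35 CPM elsewhere.

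The range over libraries was set beside that of the whole table. For the 34 members with a read in every library, the median ratio of the highest to the lowest level was 2.66, against 2.04 over 12126 such genes. The library with the highest level was neck for 13 of the 36 members, against 30.3% of all genes. It was the flank-neck library for 8 members, against 22.7%, and presumptive forelimb for 6, against 16.5%. Hindlimb was highest for 4 (7.84% of all genes), flank for 3 (11.8%) and forelimb for 2 (11.0%). ITGB4, ITGBL1 and Q91435_CHICK reached 1 CPM in 1 library alone. The filter thus fixed neck, flank and the flank-neck library, in that order, as their highest. None of these shares was tested against the background.

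Setting the 3 limb libraries against neck and flank asks which adhesion genes separate limb-forming mesenchyme from the rest. LAMA2, ITGA8 and ITGAV lay at the low end in limb, and LAMA1, ITGA11, NID2 and SDC1 at the high end. The split of members between the directions was near that of all genes. Of the 35 members that could be compared, 9 were lower in all 3 limb libraries than in both others, against 27.5% of all 12486 genes. Of these 9, 8 are family members, namely LAMA2, ITGA8, ITGAV, LAMA4, GPC5, LAMC3, Q91415_CHICK and ITGB4. ITGB4 and the ninth, ITGBL1, passed the filter through neck or flank alone, so their direction follows from the filter and supports nothing. LAMA1 and NID2 were higher without overlap; with 2 genes of other families this made 4 members, against 15.4% of all genes. Neither share was above the background.

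Size was measured as the difference of class means on the log2(CPM + 1) scale, limb minus neck and flank, which understates changes of low genes. LAMA2 (-1.72), ITGA8 (-1.47) and ITGAV (-1.39) were the 3 members lower without overlap and at least 2-fold, against 4.92% of all genes. Without neck only ITGAV of these remained so, and the edgeR difference of LAMA2 went from -2.59 to -0.61 and that of ITGA8 from -1.37 to -0.85. LAMA4 (-0.95), GPC5 (-0.84), LAMC3 (-0.82), Q91415_CHICK (-0.76) and ITGB4 (-0.70) were lower by less. SDC2 (-0.78), ITGA2 (-0.70), LAMA5 (-0.53) and ITGA1 (-0.51) had lower means with overlapping values. In the other direction LAMA1 (0.56), NID2 (0.55), ITGA11 (0.55) and SDC1 (0.54) had higher limb means, the last 2 with overlap, and 0 members reached 2-fold without overlap, against 1.23% of all genes.

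By family, the median difference was -0.61 for the 6 integrin alpha chains, -0.53 for the 7 laminin chains compared, 0.41 for the 2 nidogens, -0.02 for the 4 syndecans and -0.11 for the 5 glypicans. No median is given for the 3 beta chains, where ITGB1 differed by 0.26 and Q91415_CHICK by -0.76 and ITGB4 passed the filter through neck alone. Over all 35 members the median was -0.33, against -0.14 for all genes, and 24 members had the lower mean in limb, against 62.2% of all genes. The 24 include ITGB4 and ITGBL1, whose direction follows from the filter. With edgeR's TMM scaling the split was 15 higher and 20 lower, in place of 11 and 24. After centring each library on the median of all genes it was 16 and 19. All genes moved as well: 48.5% were higher with TMM and 55.8% after centring, in place of 37.8%. The direction of GPC4, GPC6, LAMA3 and ITGB1BP3 flipped under both scalings, and that of SDC3 under centring.

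**Figure D2:**
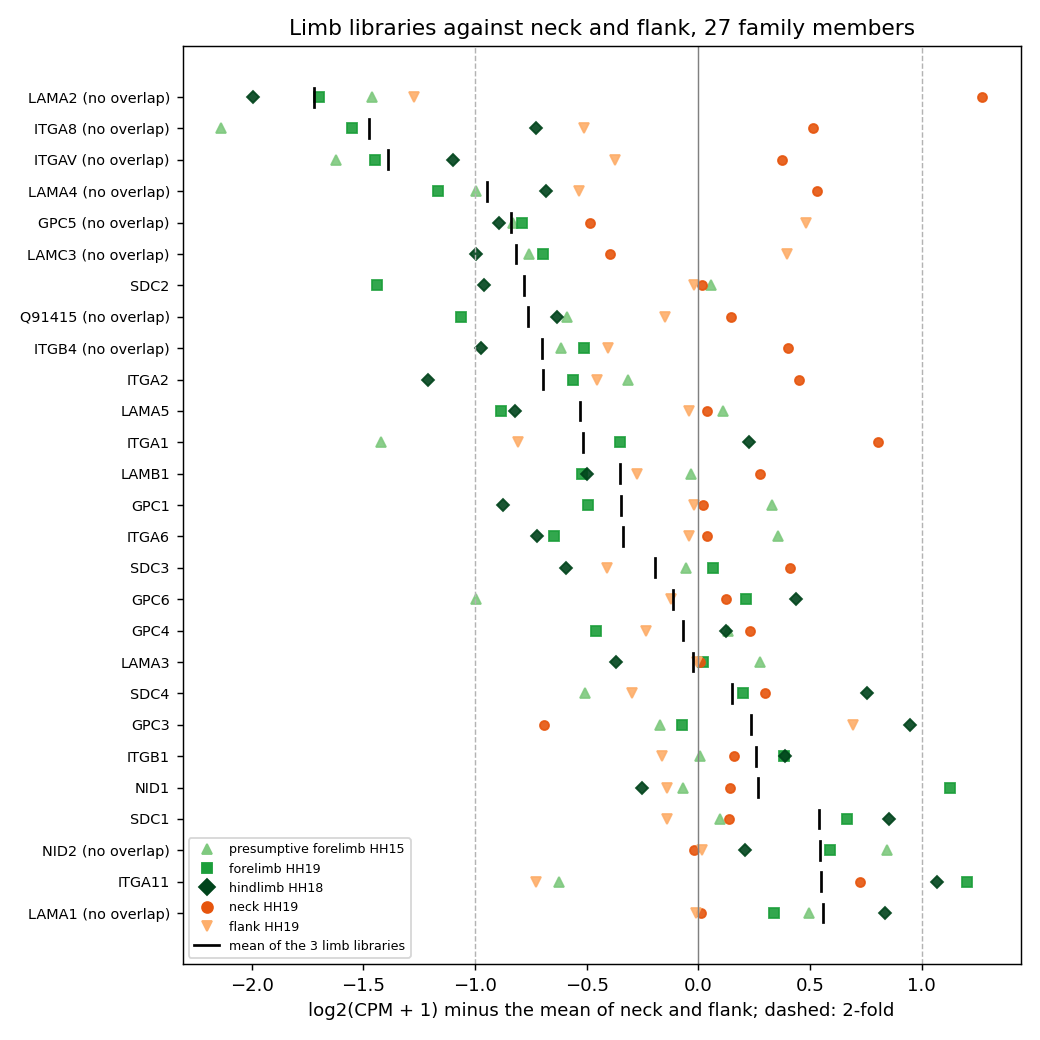
Each library's log2(CPM + 1) minus the mean of neck and flank, for the 27 family members compared; the black tick is the mean of the 3 limb libraries and dashed lines mark 2-fold. LAMA2, ITGA8 and ITGAV lie beyond 2-fold on the left with no overlap, while neck sits far to the right of flank for LAMA2.

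In the quasi-likelihood test of edgeR, adjusted over 12486 genes by the Benjamini-Hochberg method, 0 of 35 members passed an adjusted p of 0.05 in either direction, against 0.136% of all genes. The spread in this test is that between tissues and stages within a class, since there were no replicate libraries. At an unadjusted p below 0.05, 6 members were lower (10.5% of all genes) and 5 higher (12.9%). Of the 6 lower, 5 are family members. The other, ITGBL1, passed the filter through flank alone, so its direction follows from the filter and supports nothing. ITGAV came nearest, with an edgeR log2 difference of -1.33 ± 0.27 (SE; adjusted p = 0.0713), followed among family members by LAMA1 at 0.71 ± 0.18 (edgeR adjusted p = 0.0973) and NID2 at 0.70 ± 0.19 (edgeR adjusted p = 0.113). LAMA2 was at -2.59 ± 0.77 (edgeR adjusted p = 0.126), LAMA4 at -0.90 ± 0.30 (0.152), SDC1 at 0.72 ± 0.26 (0.167), ITGA8 at -1.37 ± 0.49 (0.171) and GPC5 at -0.90 ± 0.36 (0.201). DESeq2's Wald test called 2 members lower, ITGAV (adjusted p = 0.00175) and LAMA2 (0.0264), against 4.11% of all genes. It called 3 higher, LAMA1 (DESeq2 adjusted p = 0.0124), NID2 (0.0244) and EIF6 (0.00705), against 7.50%, and limma's trend test called 0 members, against 1.39%.

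The class comparison rested in part on single libraries. Without presumptive forelimb, edgeR called SDC1 higher in limb (0.92 ± 0.14, adjusted p = 0.0368), while 5.05% of all genes were then called. The count without overlap and at least 2-fold apart was 5 without presumptive forelimb (10.2% of all genes), 7 without flank (10.8%), and 1, ITGAV, when the flank-neck library joined the non-limb class (2.98%). The count without flank includes ITGB4, whose direction follows from the filter. The median over members was -0.09 without neck, against -0.05 for all genes.

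Of the 8 members of other families, EIF6, a factor of ribosome assembly described in the table as an integrin beta 4 binding protein, was at 112, 117 and 115 CPM in the limb libraries, 90.2 in neck, 86.1 in flank and 64.6 in the flank-neck library. SDCCAG10 was at 76.0, 78.0, 82.7, 62.5, 63.8 and 49.2 CPM, so for both genes all limb values were above the rest. ITGBL1 had 0 or 1 read in each limb library, 5 in neck and 9 in flank. ITGB1BP3, GPCPD1, ITGB1BP1 and SDCCAG8 stayed within a 1.59-fold range over the 6 libraries, and SDCCAG3 ranged from 1.63 to 4.35 CPM.

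Forelimb at HH19 was set against presumptive forelimb at HH15 to follow the change from field to bud; with 1 library each there is no test. ITGA11 (a difference of 1.83 on the log2(CPM + 1) scale), GPC6 (1.21), NID1 (1.20) and ITGA1 (1.07) were at least 2-fold higher in the bud. SDC2 (-1.50), ITGA6 (-1.0) and SDCCAG3 (-1.02) were at least 2-fold lower, with LAMA5 (-0.99) and GPC1 (-0.82) next. These were 4 of 33 members higher, against 3.43% of all genes, and 3 lower, against 6.17%. The median over members was -0.15, against -0.10 for all genes. The value of GPC6 starts from 1 read in presumptive forelimb, and that of ITGA11 from 7 reads (0.982 CPM). Both were below 1 CPM there and passed the filter through forelimb alone. Their direction thus follows from the filter and supports nothing.

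The genes lower in the bud are among those whose order over libraries ran with the ectoderm markers. SDC2, ITGA6, LAMA5 and GPC1 were all higher in presumptive forelimb, neck and flank than in forelimb and hindlimb, as was the summed level of the ectoderm and epithelium markers given above. KRT8 and KRT19 made up most of that sum in presumptive forelimb (118 and 100.1 CPM), neck and flank. They were a smaller part of it in forelimb (9.93 and 8.67 CPM), hindlimb (9.56 each) and the flank-neck library (2.35 and 2.69). Other markers of the list went another way: CDH1 was at 26.5, 18, 16.9, 22.7, 16.2 and 31.7 CPM in the usual order, and GRHL3 was at 2.24 CPM in presumptive forelimb and 2.64 in forelimb. In the flank-neck library the marker sum was low (48.2 CPM), as were SDC2 and GPC1, while ITGA6 and LAMA5 were high. The part of ectoderm in these differences was not tested. ITGA1 followed the order of the summed endothelium markers closely, with neck highest, the flank-neck library and hindlimb next, and presumptive forelimb lowest. Of the 11 markers compared, 10 had the lower mean in limb and 1, GJA4, the higher. GJA4 was at 5.61, 3.64 and 6.86 CPM in the limb libraries, 0.737 in neck, 0.725 in flank and 2.02 in the flank-neck library. VWF was highest in neck (16.1 CPM) but lowest in the flank-neck library (1.34 CPM). The part of endothelium in the differences of ITGA1 was not tested either.

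**Figure D3:**
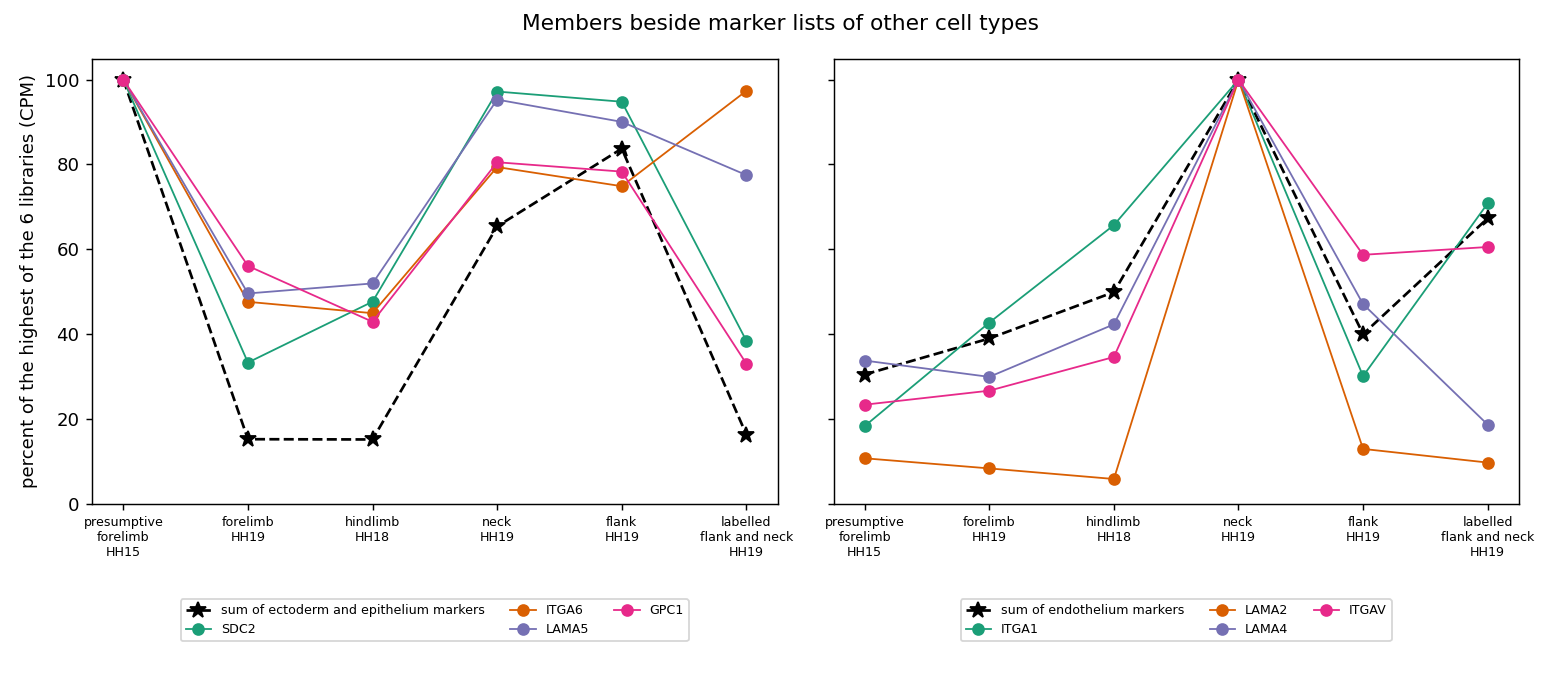
Levels of 8 members and of 2 summed marker lists as a percent of the highest of the 6 libraries (CPM, linear axis); lines join the same gene across libraries and stand for no order. SDC2, ITGA6, LAMA5 and GPC1 are shown beside the ectoderm and epithelium markers (left), and ITGA1, LAMA2, LAMA4 and ITGAV beside the endothelium markers (right). The members on the right and the sum of the endothelium markers peak in neck, but single markers such as KDR and GJA4 do not. In the flank-neck library LAMA2 and LAMA4 are at 9.69% and 18.6%, while the endothelium sum is 164.6 CPM there and 244.5 in neck.

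Hindlimb at HH18 was set against forelimb at HH19, again with no test. GPC3 was higher in hindlimb (1.02), with intervals of 139 to 154 CPM against 65.7 to 77.5 in forelimb, and NID1 was lower (-1.38). These were the 2 members at least 2-fold apart, 1 of 33 higher, against 1.78% of all genes, and 1 lower, against 2.24%, so the counts give nothing particular to the members. ITGA8 (0.82), GPC4 (0.58) and ITGA1 (0.58) were next on the higher side, and SDC3 (-0.66), ITGA2 (-0.65) and LAMA3 (-0.39) on the lower. ITGA2 and LAMA3 were below 1 CPM in hindlimb, so their direction follows from the filter. The stages of the 2 libraries differ as well as the limbs. Both pairs share the forelimb library, so a high value there, as for NID1, enters them in opposite directions.

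Neck and flank, which formed the non-limb class, also differed from each other. LAMA2 (2.55), ITGA1 (1.61), ITGA11 (1.45), LAMA4 (1.07) and ITGA8 (1.03) were at least 2-fold higher in neck, and GPC3 (-1.38) was lower, with GPC5 (-0.97) and LAMC3 (-0.79) next. This gave 5 of 35 members higher in neck, against 5.15% of all genes, and 1 lower, against 2.25%. ITGA11, at 0.846 CPM in flank, passed the filter of this pair through neck alone, so its direction follows from the filter. At any size, 27 members were higher in neck, 23 of them family members, against 67.8% of all genes. The 27 include ITGA11 and ITGB4 (0.483 CPM in flank), which passed this pair's filter through neck alone. ITGBL1 passed it through flank alone, so its lower value in neck follows from the filter too. The median over members was 0.25, against 0.14 for all genes. After centring on the median of all genes, LAMA2, ITGA1 and ITGA11 stayed at least 2-fold higher in neck, and LAMA4 and ITGA8 did not. GPC3 and GPC5 were then at least 2-fold lower. That made 3 higher and 2 lower, against 6.53% of all genes in either direction. Leaving globins and the most abundant unnamed gene out of the totals gave the same 3 and 2 (7.2% of all genes). Endothelium markers were also higher in neck (244.5 against 97.8 CPM) and globins in flank, and their part was not tested.

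**Figure D4:**
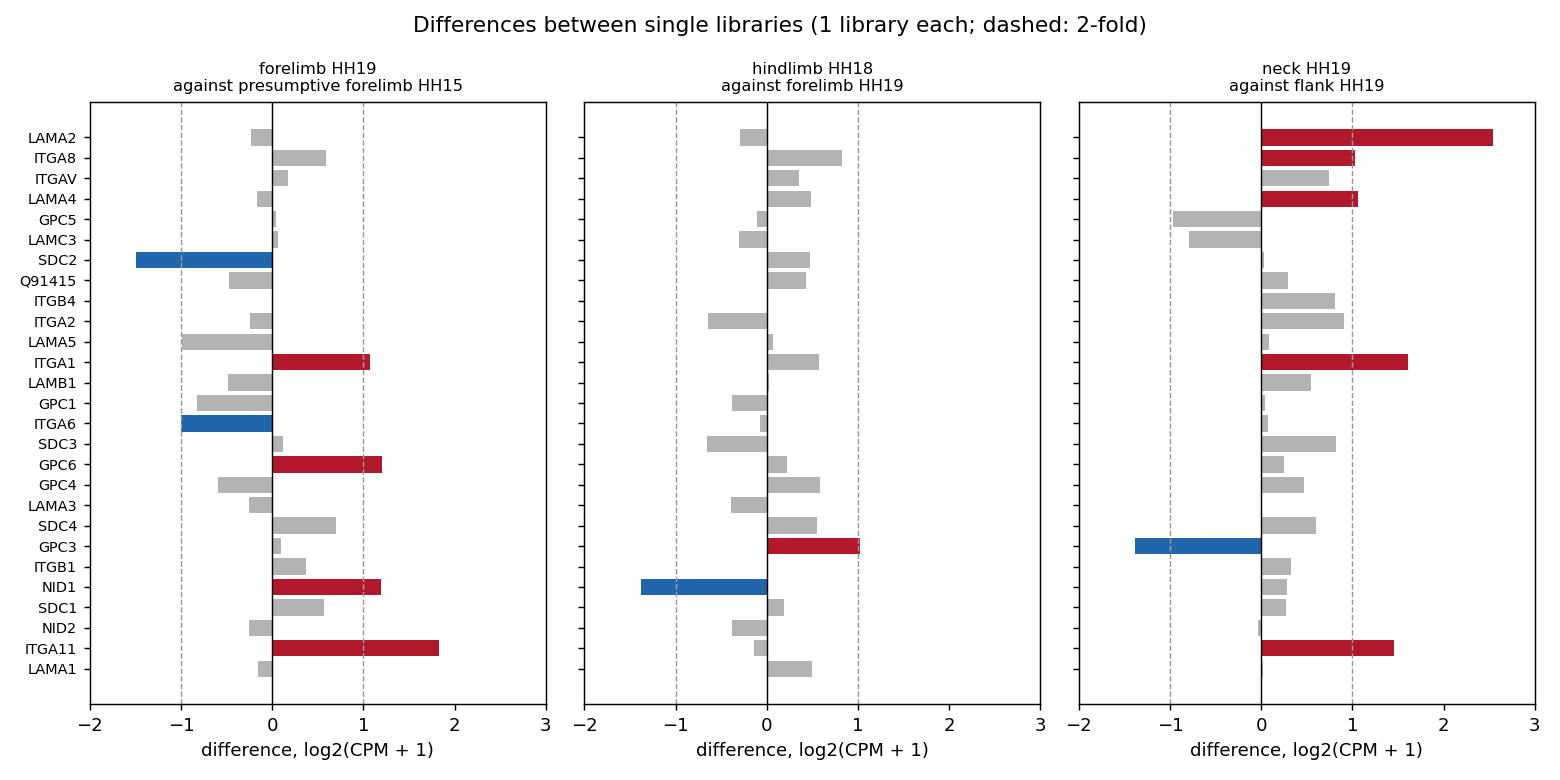
Difference in log2(CPM + 1) between single libraries for the family members, in the order of the limb comparison; red and blue bars mark 2-fold or more in either direction, grey bars less, and ITGB4 has no bar in the limb pairs because it was below 1 CPM in them. SDC2 is the most negative bar on the left, NID1 in the middle and GPC3 on the right, and LAMA2 the most positive on the right.

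The flank-neck library lay between neck and flank for 7 of 36 members, near the 18.9% of all genes for which it did so, namely ITGAV, ITGA1, ITGA2, LAMC3, Q91415_CHICK, SDC1 and SDCCAG8. It was at least 2-fold above both for ITGA11 and SDC4, 2 members against 5.17% of all genes, and at least 2-fold below both for GPC1, ITGA8, LAMA4 and SDC2, 4 members against 5.64%. ITGA11 was 10.6-fold and SDC4 4.20-fold above the highest of the other 5 libraries, 2 members at least 2-fold above all 5 against 2.80% of all genes. At least 2-fold below all 5 there were 0 members, against 0.911%. Adding this library to the non-limb class turned the edgeR difference of ITGA11 from 0.95 ± 0.89 to -2.42 ± 1.45 (adjusted p = 0.419). MEOX1, the somite marker in the table (1 of 5), was at 18.9 CPM in this library and at 2.52 to 8.80 in the other 5. The part of somite tissue in these differences was not tested.

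**Figure D5:**
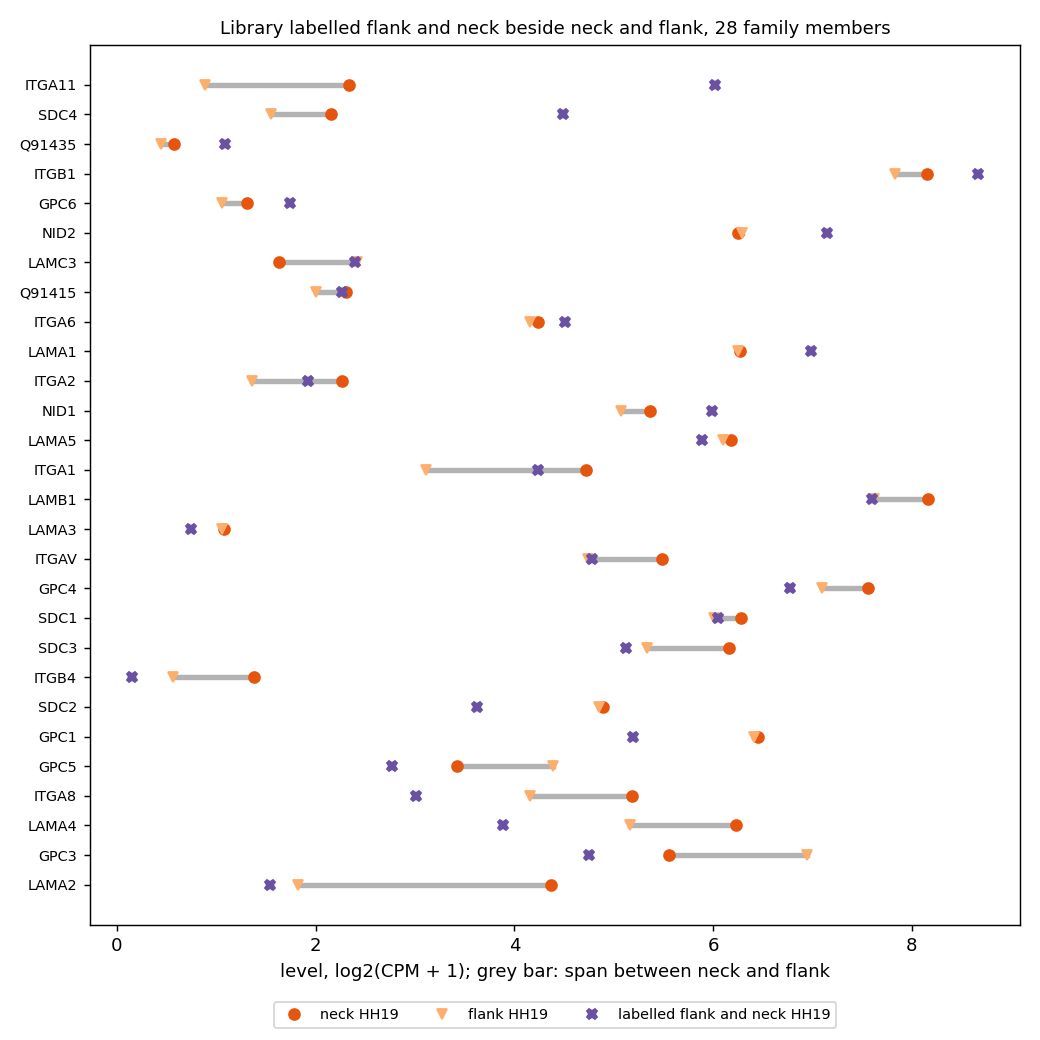
Level of the 28 family members, on the log2(CPM + 1) scale, in neck, flank and the flank-neck library, sorted by how far the last lies above the highest of the other 5 libraries; the grey bar spans neck to flank. ITGA11 and SDC4 lie far to the right of the bar, and SDC2, GPC1, ITGA8, LAMA4 and GPC3 are among those to its left.

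The partners of these receptors and proteoglycans were described from 4 lists. The integrin ligands other than laminins had the median farthest from 0 of the 4: of 19 compared (22 listed), 13 were lower in all 3 limb libraries than in neck and flank (27.5% of all genes), 12 of them at least 2-fold (4.92% of all genes), and 1 was higher (15.4%). Their median difference was -1.60 on the log2(CPM + 1) scale, against -0.14 for all genes. TNC, the matrix protein tenascin C and a ligand of ITGA8 and ITGAV integrins, was at 1.12, 0.880 and 0.312 CPM in the limb libraries, 76.4 in neck, 11.8 in flank and 44.9 in the flank-neck library. POSTN, periostin, which ITGAV integrins bind, was at 4.21, 21.7, 7.90, 186, 77.4 and 18.9 CPM. COL6A2, a chain of collagen VI, was at 0.561, 1.01, 3.33, 19.9, 73.2 and 73.5 CPM. In edgeR's quasi-likelihood test 2 ligands passed as lower in limb, the fibrillin FBN2 (-1.89 ± 0.20, adjusted p = 0.0465) and the collagen I chain COL1A2 (-1.48 ± 0.14, adjusted p = 0.0445), the latter also among the mesenchyme markers, against 0.136% of all genes. Both calls were lost, with every other gene's, without forelimb, hindlimb, neck or flank and with the flank-neck library added, when edgeR called 0 genes.

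Of the basement membrane genes other than laminins and nidogens, 21 were compared (23 listed), with a median of -0.64. Without overlap and at least 2-fold, 7 were lower (4.92% of all genes) and 1 higher (1.23%). In edgeR's test 0 passed the adjusted threshold (0.136% of all genes). At an unadjusted p below 0.05, 7 were lower (10.5% of all genes) and 1 higher (12.9%). NPNT, nephronectin, the ligand of ITGA8, was at 5.33, 2.76 and 5.51 CPM in the limb libraries, 24.7 in neck, 16.4 in flank and 2.46 in the flank-neck library (edgeR -2.04 ± 0.32, adjusted p = 0.0563). Ligand and receptor thus had their 2 highest values in neck and flank. SMOC1, a calcium-binding basement membrane protein, was the gene higher without overlap, at 11.5 CPM in presumptive forelimb, 34.3 in forelimb, 35.7 in hindlimb, 2.21 in neck, 2.90 in flank and 9.19 in the flank-neck library. Its relative SMOC2 was at 48.2, 7.67, 13.5, 67.0, 91.3 and 0.336 CPM.

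Of the integrin adhesion complex inside the cell, 19 genes were compared (26 listed). Without overlap 6 were lower (27.5% of all genes) and 2 higher (15.4%), 0 by 2-fold, and the median of -0.12 was near the -0.14 of all genes. In edgeR's test 0 passed the adjusted threshold (0.136% of all genes). At an unadjusted p below 0.05, 5 were lower (10.5% of all genes) and 1 higher (12.9%). VCL, vinculin, was at 61.7, 42.1 and 52.1 CPM in the limb libraries, 106 in neck, 93.1 in flank and 91.0 in the flank-neck library (edgeR adjusted p = 0.0705). PARVG, a parvin of blood cells, had a limb mean higher by 0.73, with overlapping values of at most 3.12 CPM. The 2 genes higher without overlap, named after their values were seen, were LIMS1 (0.47) and PARVB (0.26).

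Among genes that build and edit heparan sulphate, the chains of syndecans and glypicans, 19 were compared (26 listed), with a median of -0.33. Without overlap 8 were lower (27.5% of all genes), 2 of them at least 2-fold (4.92%), and 2 were higher (15.4%). In edgeR's test 0 passed the adjusted threshold (0.136% of all genes). At an unadjusted p below 0.05, 4 were lower (10.5% of all genes) and 1 higher (12.9%). SULF2, an extracellular sulphatase that trims the chains, was at 19.2, 8.17 and 9.14 CPM in the limb libraries, 33.8 in neck, 39.4 in flank and 5.38 in the flank-neck library (edgeR adjusted p = 0.0936). NDST3, a sulphotransferase that modifies the growing chain, was at 2.80, 3.90, 2.49, 8.85, 10.3 and 15 CPM (edgeR adjusted p = 0.0739). HS3ST1, which adds a late sulphate group, had a difference of -0.71 from levels of at most 1.23 CPM. It is among the 8 lower without overlap and the 4 lower at an unadjusted p below 0.05. It reached 1 CPM in neck alone, so its direction follows from the filter and supports nothing.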

How the data were processed

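Polyadenylated RNA libraries of 6 chick mesenchyme samples, 1 per tissue and stage, were analysed from 1 table deposited by the authors. Its read columns are counts per gene, deposited by the authors without normalisation, and its normalised columns are CPM made by the authors from the same counts, which recomputation returned to within 4.9e-11. TopHat 1.4.0 and the galGal4 build are named in the submitters' processing notes; the counter, its strand setting and the annotation are not given in the sources used here, and coordinates were left out.

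Members and gene lists were chosen with earlier results of these data known. Symbols came from the table, or from entry names and RefSeq where it had none. Limb (3 libraries) was compared with neck and flank (2) by edgeR's quasi-likelihood test on counts (two-sided, TMM, genes reaching 1 CPM in any of the 5 libraries, Benjamini-Hochberg over 12486 genes, adjusted p below 0.05); the common biological coefficient of variation was 0.283. Q91435_CHICK did not pass that filter, so 35 members were tested. The SE printed with an edgeR difference is its absolute size divided by the square root of the test's F statistic. edgeR itself gives no SE in this test. The flank-neck library was left out of the classes because its label names tissues that neck and flank already stand for. This rests on the label, and its level lay between those of neck and flank for only 18.9% of all genes. Pairs of libraries were compared on log2(CPM + 1), with no test, over genes at 1 CPM or more in either. Values are printed for every library for the 16 family members with the largest class difference and the 4 largest per direction in each pair, and up to 3 genes per partner list are named (1 is not reported here); GPC4, ITGB1, LAMB1, Q91435_CHICK, EIF6, SDCCAG10 and the edgeR-called FBN2 and COL1A2 were added after their values were seen. The fit was run on simulated counts with a smaller spread than the 0.283 of these data, and only genes with many reads were changed. That run does not show how the test performs at the spread of these data. The authors' deposited fold and p-value columns were not used. Python 3.11.15 was used with matplotlib 3.10.9, scipy 1.17.1, pandas 2.3.3 and numpy 2.4.6, and R 4.3.3 with DESeq2 1.42.0, limma 3.58.1 and edgeR 4.0.16.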

Additional observations from a re-analysis of the deposited data

How the results depend on the processing

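With 1 library per tissue and stage, the class comparison measures differences between tissues and stages, and pairs of libraries have counting error only; 3 reads (0.312 to 0.421 CPM) limit ITGB4, ITGBL1, GPC6 and Q91435_CHICK. No paired analysis was possible because each tissue and stage has 1 library, so no replicate number pairs them.

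The number of members called in the class comparison was 0 by edgeR with TMM (0.136% of all genes) or RLE scaling (0.104%). It was also 0 without a filter (1.59%), at 5 CPM (0.153%) and by limma (1.39%). With the flank-neck library added edgeR called 0 genes, so its 0 members there says nothing about the members. In that fit 7 members had an unadjusted p below 0.05. The share of all genes below it was not computed for that fit, so nothing is read from the 7. DESeq2 called 5 members (11.6% of all genes). With a limb library left out, edgeR called 1 member without presumptive forelimb (5.05%). Without forelimb or hindlimb it called 0 genes, so it could call 0 members. Leaving out neck or flank left 1 library in a class, so no count is given. The number without overlap and at least 2-fold apart was 3 (6.15% of all genes), but 7 with a pseudocount of 0.1 (10.4%). These 7 include ITGB4 and ITGBL1, whose direction follows from the filter. That number was 1 with the flank-neck library added (2.98%), and 3 to 7 with a library left out (6.22% to 10.8%). The median difference of -0.33 became -0.13 after centring on all genes (whose own median then was 0.07) and ranged from -0.37 to -0.093 with a library left out, the latter without neck. At a 1.5-fold threshold the counts in pairs were 12 in place of 7 for forelimb against presumptive forelimb (23.4% of all genes), 5 in place of 2 for hindlimb against forelimb (14%) and 13 in place of 6 for neck against flank (18.9%). The 12 include GPC6 and ITGA11, the 5 include ITGA2, and the 13 include ITGA11 and ITGB4. In each case the direction follows from the filter. Centring left 1 of the 2 hindlimb members, NID1 (4.01% of all genes). A pseudocount of 0.1 gave 10 for neck against flank (11.9%). The 10 include ITGA11 and ITGB4, which passed that pair's filter through neck alone. Leaving globins and the most abundant unnamed gene out of the totals was chosen after seeing the data. It gave counts of 3, 6, 2 and 5 (6.29%, 9.8%, 4.16% and 7.2% of all genes) and a median of -0.34. The 6 include GPC6 and the 5 include ITGA11, whose direction there follows from the filter.

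Of 16 members fitted by edgeR under 7 alternatives, 2 changed direction: ITGA11 with the flank-neck library added (-2.42) and ITGA1 without neck (0.55 ± 0.72, edgeR adjusted p = 0.783; lowest -1.01, without flank). SDC1 without presumptive forelimb newly passed (0.92). The other 108 values kept direction, but none of these members passed the threshold to begin with, and single libraries moved several by over 1.5 times. Without neck LAMA2 went from -2.59 to -0.61, LAMA4 from -0.90 to -0.37, ITGA8 from -1.37 to -0.85 and ITGA2 from -0.98 to -0.32. Without flank GPC5 went from -0.90 to -0.18 and LAMC3 from -1.18 to -0.46, and without presumptive forelimb LAMA5 went from -0.35 to -0.72 and SDC2 from -0.56 to -1.09. ITGAV stayed lower in limb in each fit with a library left out (-1.61 to -1.0; edgeR adjusted p from 0.0632 to 0.331). The causes were not tested.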

Other observations

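Further entries of the table carry integrin or laminin in their description without matching the membership rule, and 7 were found. An alpha 4 integrin fragment, Q9PSD7_CHICK, was at 34.4 CPM in presumptive forelimb, 40.2 in forelimb, 30.0 in hindlimb, 39.6 in neck, 45.4 in flank and 34.5 in the flank-neck library. Its limb and non-limb values overlapped. Q5ZM22_CHICK, described only as an integrin, was at 25.4, 18.6 and 15.1 CPM in the limb libraries, 46.1 in neck, 41.5 in flank and 20.5 in the flank-neck library, so that neck and flank were above the other 4. Q788Q4_CHICK, also described only as an integrin, was at 3.65, 6.03, 6.24, 17.9, 8.82 and 25.2 CPM. A laminin gamma 2 fragment, Q6PVZ6_CHICK, had reads in presumptive forelimb (0.701 CPM) and in the flank-neck library (0.448 CPM) and was at 0 in the other 4.

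In the flank-neck library, in which ITGA11 and SDC4 were high, 4 genes of the partner lists were at least 2-fold above the other 5 libraries. They were 2 of the 20 integrin ligands found and 2 of the 21 heparan sulphate genes found, against 2.80% of all genes. The basement membrane and adhesion complex lists gave 0 of 22 and 0 of 19. Fibrillar collagens, the ligands of ITGA11, were not among the 4 genes: COL1A2 was at 476 CPM in that library and 1278 in neck, and COL3A1 at 15 and 168. SPP1, osteopontin, an integrin ligand, was at 44.1 CPM there and at 0.242 to 7.90 CPM in the other 5. VTN, vitronectin, a ligand of ITGAV integrins, was at 11.9 CPM against 0.604 to 3.84. Among heparan sulphate genes, HS3ST2 was at 16.5 CPM against 0.104 to 2.10, and NDST4 at 2.80 CPM against at most 0.377. NDST4 reached 1 CPM in the flank-neck library alone, so its direction follows from the filter and supports nothing.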
